A study of Saccharomyces cerevisiae with 8 samples.

Results

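The small-subunit processome genes described here are 32 of the 5933 yeast genes measured in the series. They were chosen by systematic name, not by a measured value, and comprise 15 UTP genes together with NOP1, NOP14, NOP56, NOP58, KRR1, IMP3, IMP4, MPP10, DIP2, PWP2, SOF1, RRP5, RRP9, RRP12, ROK1, ENP1 and ENP2. Direct RNA sequencing (DRS), which reads polyadenylated RNA molecules from their 3′ ends without a cDNA step, was run on 8 samples of Saccharomyces cerevisiae of the W303 background. Every strain, controls included, lacked the chromosomal PCF11 gene (pcf11-delta::TRP1) and carried ura3-1, trp1-delta, ade2-1, a leu2-3 allele and his3-11,15. Each lived on a pRS325 plasmid with LEU2 and a version of PCF11, which encodes a subunit of a factor that cuts nascent transcripts ahead of polyadenylation. Wild type was MAT alpha with PCF11 tagged with V5 and MYC. The pcf11-13 strain was MAT a with an untagged allele. The pcf11-dNL strain was MAT alpha with a tagged allele that the labels call deltaN-link. Cultures grew in YPAD at 30 °C and were harvested, or were first brought to 20 mM caffeine and grown for 2 h more. Wild type had 2 untreated and 2 treated libraries, from experiments 1 and 2. The pcf11-13 pair, 1 library per medium, belonged to experiment 1, and the pcf11-dNL pair, likewise 1 per medium, to experiment 2.

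The small-subunit (SSU) processome is the large nucleolar particle that forms on the nascent ribosomal RNA precursor and in which the 40S ribosomal subunit starts to take shape. The UtpA complex binds the 5′ external transcribed spacer first, UtpB and the U3 small nucleolar ribonucleoprotein (snoRNP) follow, and the U3 RNA pairs with the precursor to guide its cleavage. In yeast the genes of ribosome assembly form a regulon that follows growth and the TORC1 kinase, which caffeine inhibits. Their promoters are known for a pair of short elements, PAC and RRPE, read by the repressors Dot6 and Tod6 and by Stb3.

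The promoters of 3 members are shown. KRR1 and NOP1 were taken for the largest falls with caffeine in wild type among members that hold both elements. UTP7 was taken for the smallest change. The stretches run from 250 to 81 bases before the annotated gene start on the gene's own strand, in the R64 assembly from RefSeq, 5′ to 3′. Capitals mark the core of PAC (GATGAG, or CTCATC where it lies on the other strand) and the core of RRPE (AAAATTTT, which reads the same on both strands).
KRR1 (chrIII:23460-23629, - strand): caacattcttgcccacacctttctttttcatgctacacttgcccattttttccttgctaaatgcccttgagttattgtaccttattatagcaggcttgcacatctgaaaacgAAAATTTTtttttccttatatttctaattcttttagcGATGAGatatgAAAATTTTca
NOP1 (chrIV:427114-427283, + strand): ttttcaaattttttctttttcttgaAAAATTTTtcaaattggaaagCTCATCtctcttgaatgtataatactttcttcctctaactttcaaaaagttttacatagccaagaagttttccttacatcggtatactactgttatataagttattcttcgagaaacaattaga
UTP7 (chrV:326017-326186, - strand): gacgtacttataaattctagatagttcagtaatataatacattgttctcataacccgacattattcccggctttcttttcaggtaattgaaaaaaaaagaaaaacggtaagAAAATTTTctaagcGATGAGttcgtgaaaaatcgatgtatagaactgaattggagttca

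In KRR1 the PAC core began 101 and 68 bases before the start and the RRPE core 138 and 90 bases before it. The PAC match at 68 bases lies outside the stretch printed. NOP1 held 1 RRPE core at 225 bases and 1 PAC core, on the other strand, at 204 bases. UTP7 held 1 RRPE core at 139 bases and 1 PAC core at 125 bases. UTP7, the gene that changed least, has both elements too, while KRR1 and NOP1 were picked among members that hold both.

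Over windows from 250 bases before to 50 bases after the start, searched on both strands, the PAC core lay in 30 of the 32 members (93.8%), against 20.5% of 5881 protein-coding genes. The longer PAC form GCGATGAG, which contains the core, lay in 18 members (56.2%), against 4.0% of all genes. The RRPE core lay in 25 members (78.1%) against 9.0%, and its longer form AAAAATTTT in 21 (65.6%) against 7.1%. Both cores were present in 24 members (75.0%), against 4.5% of all genes. In 18 of these 24 the RRPE core preceded the nearest PAC core on the gene's strand, with 18 bases between their first bases at the median and a range from 10 to 42. Of 42 PAC core matches in the members, 38 began between 200 and 60 bases before the start. The shares were similar in other genes of ribosome assembly: both cores lay in 23 of 35 other small-subunit factors (65.7%) and in 39 of 57 large-subunit assembly factors (68.4%). Among 137 cytosolic ribosomal protein genes 1 held both (0.7%). The median log2 change with caffeine in wild type was -1.09 in the 24 members with both cores, of which 14 fell by the test used below, and -0.90 in the 8 without, of which 4 fell. With the longer PAC form 8 of 18 members fell, with a median of -0.925, and without it 10 of 14, with a median of -1.154. With the RRPE core 15 of 25 fell and without it 3 of 7. Whether these shares differ was not tested. A match is a string of letters and not a measured binding site.

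**Figure D1:**
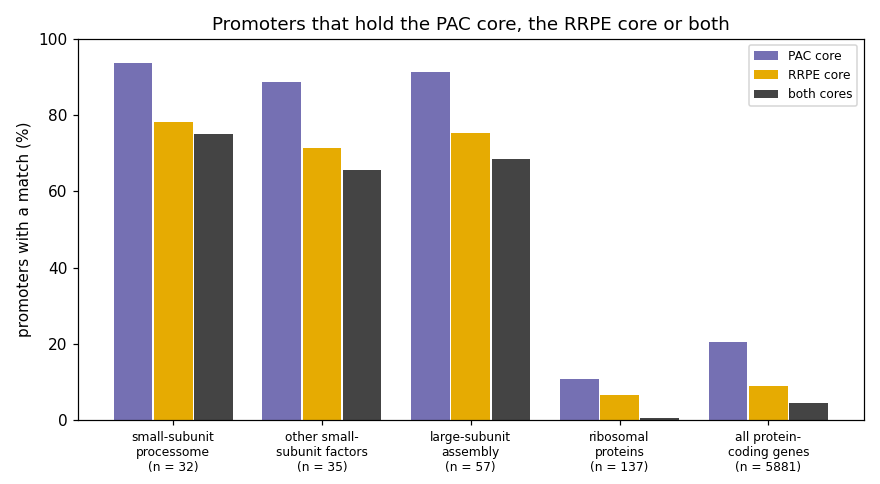
Share of promoters, in percent, that hold the PAC core, the RRPE core or both, for the 32 small-subunit processome genes, 3 other gene lists and all 5881 protein-coding genes. The processome genes and the assembly factors of either subunit stand high, with both cores in 75.0%, 65.7% and 68.4% of promoters, and ribosomal protein genes (0.7%) and all genes (4.5%) stand low.

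Libraries held from 1070278 to 4555751 counts, and depth moved with the treatment in part. Both untreated wild-type libraries and untreated pcf11-dNL held 1070278 to 1631254 counts and their treated partners 4410374 to 4555751, whereas the pcf11-13 pair held 2393801 untreated and 2088078 treated. Both wild-type libraries of experiment 1 stood apart in 1 respect: URA3 and the features of the 2-micron plasmid made up 8.37% and 11.4% of their counts, against 0.252% to 0.463% elsewhere. All 6 MATa-specific genes tested were higher in pcf11-13 than in wild type (edgeR, adjusted p under 0.05), in the direction of the labelled mating types. Of 4 MATalpha-specific genes 2 were lower. SAG1, of the same list, had a log2 difference of 0.24 and did not pass. These differences average over the media. Against wild type of experiment 1, all 4 were lower in pcf11-13 without caffeine, and 3 were lower with it. In wild type all 4 fell with caffeine (edgeR, adjusted p under 0.05), with a median log2 change of -2.232. PCF11 itself was read at 205 CPM and 109 CPM without and 134 CPM and 111 CPM with caffeine in wild type (experiments 1 and 2), 189 without and 222 with it in pcf11-13, and 133 without and 110.4 with it in pcf11-dNL. Its level overlapped between strains, and these reads do not separate the alleles. Every member was read in every library, with 17 counts at the least (IMP4) and 2117 at the most (NOP1), and all 32 passed the filter on low counts. None of the 32 overlaps another annotated gene, and for 18 the next gene downstream lies on the opposite strand, where reads could be shared only if strand was not used in counting.

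The comparison of treated with untreated wild type asks how the genes respond to caffeine in the strain with tagged wild-type PCF11 on a plasmid.

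In wild type, 18 of the 32 small-subunit processome genes fell with caffeine and none rose (edgeR quasi-likelihood test, Benjamini-Hochberg adjusted p under 0.05 over 5849 genes, 2 libraries against 2). Of all genes tested 14.5% fell and 17.1% rose. The fitted log2 change was below 0 in 31 of the 32, with a median of -1.06 (-0.476 without untreated wild type of experiment 2), against a median of 0.02 over all genes. Together the 32 genes took 0.625% and 0.903% of all counts in untreated wild type of experiments 1 and 2, and 0.359% and 0.286% in treated wild type. In pcf11-13 the share was 0.521% untreated and 0.511% treated, and in pcf11-dNL 0.666% and 0.316%. Treated wild type and treated pcf11-dNL thus lay below every untreated library, while treated pcf11-13 stayed at its untreated level.

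**Figure D2:**
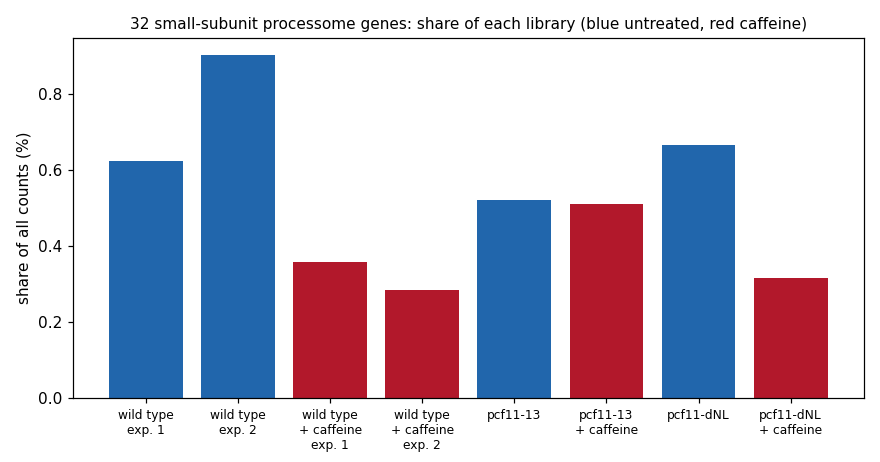
Share of all counts, in percent, taken by the 32 small-subunit processome genes in each of the 8 libraries, 1 bar per library, with no error bar because each bar is 1 library. Treated wild type (0.359% and 0.286%) and treated pcf11-dNL (0.316%) stand lowest, and the pcf11-13 pair is nearly level at 0.521% and 0.511%.

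The largest fall was that of KRR1 (YCL059C, chrIII:22429-23379), which encodes a KH-domain protein of the processome. It was read at 525 CPM untreated and 150.5 CPM treated in wild type of experiment 1, 712 and 102 in that of experiment 2, 290.1 and 263 for pcf11-13, and 628 and 126 for pcf11-dNL. All 4 treated libraries lay below all 4 untreated ones, yet the pcf11-13 pair was close together. In wild type the level was 4.89-fold lower with caffeine, a log2 change of -2.29 ± 0.31 (SE, adjusted p = 0.00248).

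NOP1 (YDL014W, chrIV:427364-428347) encodes fibrillarin, the methyltransferase of box C/D snoRNPs such as U3. Its level was 1225 and 1383 CPM in untreated wild type of experiments 1 and 2, 339 and 219 CPM in treated wild type, 573 untreated and 382 treated in pcf11-13, and 974 untreated and 221 treated in pcf11-dNL. The groups did not overlap, and the untreated pcf11-13 library was the lowest of the untreated ones. The change in wild type was -2.23 ± 0.35 (SE, adjusted p = 0.00378) on the log2 scale, 4.68-fold.

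UTP21 (YLR409C, chrXII:934414-937233) encodes a WD-repeat subunit of UtpB. Its level was 105 CPM and 173 CPM without and 41.1 CPM and 30.6 CPM with caffeine in wild type (experiments 1 and 2), 75.8 without and 53.3 with it in pcf11-13, and 98.9 without and 29.7 with it in pcf11-dNL. Treated and untreated libraries again did not overlap. The fall in wild type was 3.91-fold, -1.97 ± 0.30 (SE, adjusted p = 0.00336) on the log2 scale.

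The smallest change was that of UTP7 (YER082C, chrV:324272-325936), which encodes a WD-repeat protein of the processome core. It was read at 234 CPM untreated and 278 CPM treated in wild type of experiment 1, 295 and 227 in that of experiment 2, 306 and 263 for pcf11-13, and 219 and 206 for pcf11-dNL. In wild type the treated and untreated values overlapped, and in both mutants the treated value was the lower one. Its log2 change in wild type was -0.07 ± 0.26 (SE, adjusted p = 0.847), less than 1 standard error.

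UTP5 (YDR398W, chrIV:1267471-1269402), a UtpA subunit, was the sole member with a change above 0. Its level was 44.7 and 60.1 CPM in untreated wild type of experiments 1 and 2, 62.1 and 67.1 CPM in treated wild type, 52.5 untreated and 106 treated in pcf11-13, and 56.9 untreated and 102 treated in pcf11-dNL. Every treated library lay above every untreated one, the only member of which this was true. Of the 5849 genes tested 926 did the same. In wild type the log2 change was 0.29 ± 0.24 (SE, adjusted p = 0.377).

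IMP3 (YHR148W, chrVIII:393534-394085) encodes a small RNA-binding partner of Mpp10 that helps the U3 RNA pair with the precursor. It was read at 63.5 CPM and 95.4 CPM without and 77.5 CPM and 52.7 CPM with caffeine in wild type (experiments 1 and 2), 53.3 without and 83.6 with it in pcf11-13, and 45.7 without and 55.3 with it in pcf11-dNL. The treated value was lower in wild type of experiment 2 and higher in the other 3 pairs, and the fitted change in wild type was -0.30 ± 0.29 (SE, adjusted p = 0.441) on the log2 scale.

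**Figure D3:**
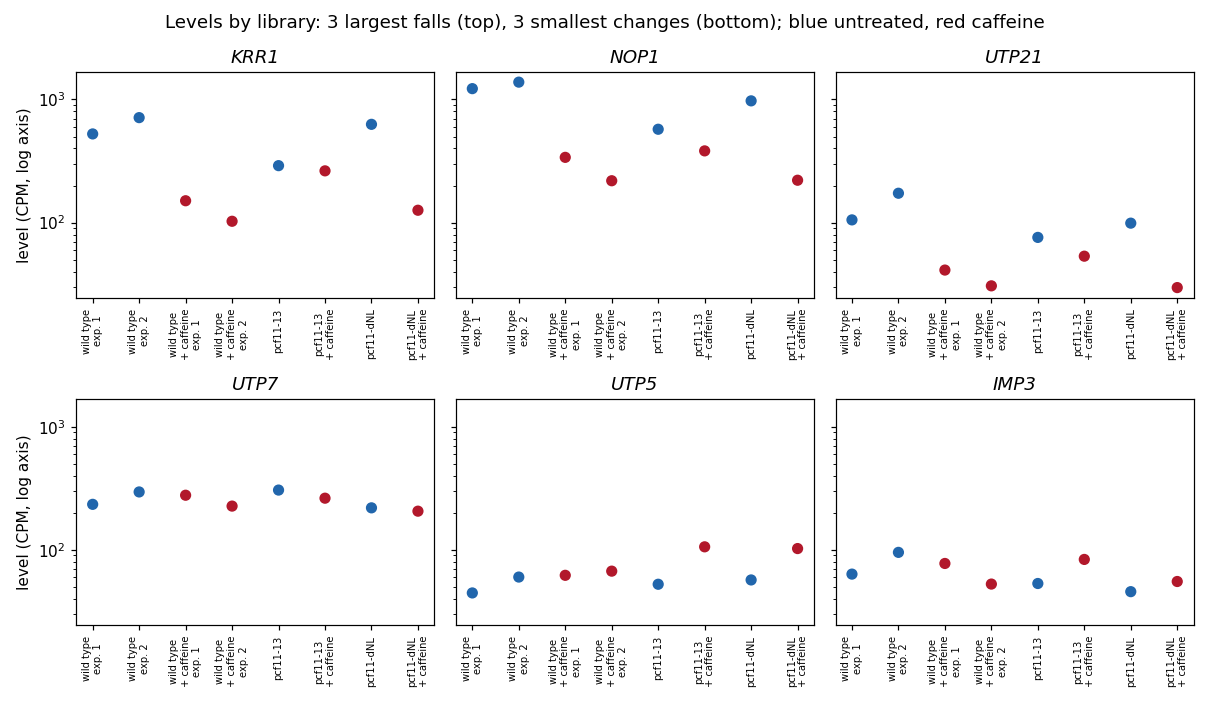
Level in TMM-scaled CPM (log axis) of 6 small-subunit processome genes in each of the 8 libraries, 1 point per library. The upper row holds the largest falls with caffeine in wild type (KRR1, NOP1, UTP21), where treated wild type and pcf11-dNL lie lowest, and the lower row the smallest changes (UTP7, UTP5, IMP3), with UTP5 above its untreated level in every treated library.

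By complex, 4 of the 6 UtpA genes fell in wild type, with a median log2 change of -1.19. UTP10, which encodes a very large repeat protein, fell by 1.75, UTP4 by 1.60, UTP8 by 1.50 and UTP15 by 0.88 on the log2 scale. UTP9 (-0.57 ± 0.32) and UTP5 did not pass the test. UtpA therefore held both strong falls and the member that stood highest.

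Of the 6 UtpB genes 3 fell, with a median of -0.95. They were UTP21, UTP13 (-1.67 ± 0.33 (SE, adjusted p = 0.00802)) and UTP6 (-1.06 ± 0.24 (SE, adjusted p = 0.0129)). PWP2, which encodes the central subunit of UtpB, came close at -0.83 ± 0.28 (SE, adjusted p = 0.0554), as did UTP18 at -0.81 ± 0.28 (SE, adjusted p = 0.0582), while DIP2 was at -0.70 ± 0.31. UTP22, the member from UtpC, fell by 1.35 with a standard error of 0.30.

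Among the 4 protein genes of the U3 snoRNP, NOP1 and NOP58 fell. NOP58 and NOP56 encode the paired scaffold proteins that hold box C/D RNA, and their log2 changes were -1.06 ± 0.32 (SE, adjusted p = 0.038) and -0.86 ± 0.36 (SE, adjusted p = 0.102). RRP9, which encodes a protein specific to U3, was at -0.36 ± 0.24 (SE, adjusted p = 0.277). In the Mpp10 complex MPP10 fell by 0.91 on the log2 scale, just past the threshold with an adjusted p of 0.0498 (edgeR; 0.0613 with the replicate block, which pairs libraries by experiment), and IMP4 and IMP3 did not pass.

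Of the 12 remaining factors 7 fell, with a median of -1.15. ENP1, whose protein stays with the 40S precursor into the cytoplasm, fell 3.42-fold. RRP5, whose protein acts in assembly of both subunits, fell 3.07-fold, and UTP20, which encodes a large helical-repeat protein, 2.93-fold. ENP2 fell 2.44-fold, UTP23 2.27-fold and SOF1 2.18-fold. The DEAD-box helicase gene ROK1 (-1.11 ± 0.38), NOP14 (-0.93 ± 0.33), UTP11 (-0.92 ± 0.36) and RRP12 (-0.62 ± 0.30), whose protein takes part in export of the subunits, had log2 changes below 0 that did not pass.

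The 2 wild-type pairs differed in size. In all 32 members the change was lower in the pair of experiment 2 than in that of experiment 1, with medians of -1.62 and -0.37 on the log2 scale. Untreated wild type of experiment 2 had read the members higher than that of experiment 1 by a median of 0.68, and treated wild type lower by 0.50. With single libraries left out, the members' median log2 change ran from -1.334 to -0.476. Fewer members passed without either wild-type library of experiment 2. More passed without either wild-type library of experiment 1, which had the high URA3 and plasmid share. The share of all genes that passed in these fits is not given, so this is not a result about the members alone. Treated cultures also grew for 2 h longer. Time in culture, cell density and caffeine cannot be told apart here, and the part of the deeper treated libraries in this result was not tested.

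Over the 3 strains together, in an additive fit of genotype and medium, 15 members fell and 1 rose with caffeine, with a median log2 change of -0.71 (-0.453 without untreated wild type of experiment 2). Among all genes 18.0% fell and 19.9% rose. The gene that rose was UTP5, at 0.62 ± 0.19 (SE, adjusted p = 0.0301) by edgeR. NOP1 (-1.81 ± 0.33 (SE, adjusted p = 0.00409)) and KRR1 (-1.79 ± 0.39 (SE, adjusted p = 0.0081)) fell most. In 10 members (UTP10, UTP21, NOP1, UTP22, UTP11, UTP20, KRR1, RRP5, ENP1 and ENP2) all 4 treated libraries lay below all 4 untreated ones. Of all genes 15.3% did the same, a smaller share than among the members. These counts leaned on single libraries. With single libraries left out, the median ran from -0.943 to -0.453. The number that fell was highest without either pcf11-13 library and lowest without either pcf11-dNL library. The share of all genes that passed in these fits is not given. UTP5 kept its call only without the treated library of wild type experiment 1 or the untreated one of experiment 2.

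**Figure D4:**
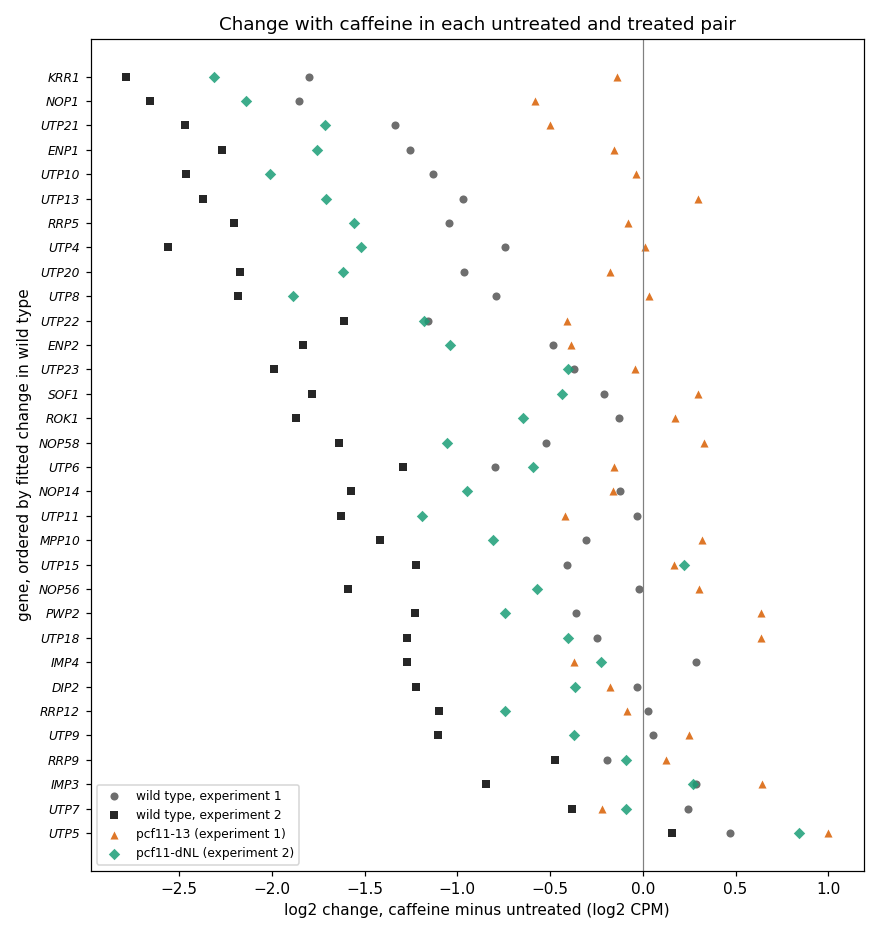
Log2 change with caffeine (treated minus untreated log2 CPM, prior count 2) of each of the 32 genes in each of the 4 pairs of libraries, 1 point per pair, with genes ordered by the fitted change in wild type. Squares (wild type, experiment 2) lie farthest to the left, triangles (pcf11-13) scatter around 0, and diamonds (pcf11-dNL) mostly lie between the 2 wild-type pairs.

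The mutants were compared with wild type to ask whether the alleles of PCF11 alter expression. No member passed the test in pcf11-13 against wild type, where 3.09% of all genes did in either direction, and none had an unadjusted p under 0.05, against 21.0% of all genes (edgeR; DESeq2 also called none). The median log2 difference was -0.10. It was -0.653 without treated and 0.515 without untreated pcf11-13, and 0.113 without untreated wild type of experiment 2. The furthest from 0 were DIP2 (-0.42 ± 0.28), NOP14 (-0.40 ± 0.31) and UTP5 (0.38 ± 0.22). DIP2, a UtpB gene, was read at 139 CPM untreated and 136 CPM treated in wild type of experiment 1, 263 and 112 in that of experiment 2, 126 and 111 for pcf11-13, and 137 and 106 for pcf11-dNL. NOP14, which encodes a factor that binds the forming 40S head, was read at 88.3 and 174 CPM in untreated wild type of experiments 1 and 2, 81.0 and 58.1 CPM in treated wild type, 76.2 untreated and 68.0 treated in pcf11-13, and 123 untreated and 63.5 treated in pcf11-dNL. In DIP2 each pcf11-13 library lay below both wild-type libraries of its medium, with caffeine by about 1 CPM against experiment 2. In NOP14 treated pcf11-13 lay between the 2 treated wild-type libraries. The average over media hides opposite values: the median difference from wild type of experiment 1 was -0.28 without and 0.29 with caffeine.

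In pcf11-dNL against wild type no member passed, nor did any gene (0.0% of 5849), and no member had an unadjusted p under 0.05, against 2.79% of all genes (edgeR; DESeq2 also called none). The difference was below 0 in 28 of the 32, with a median of -0.30 on the log2 scale. That median was -0.06 without untreated and -0.446 without treated wild type of experiment 2. Without caffeine every member was lower than in untreated wild type of experiment 2, with a median of -0.63. With caffeine the median was 0.06. The largest differences in the fit were those of UTP23 (-0.59 ± 0.36), UTP4 (-0.52 ± 0.43) and UTP15 (-0.51 ± 0.32).

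UTP23, a PIN-domain protein gene, was read at 117 CPM and 198 CPM without and 90.4 CPM and 49.3 CPM with caffeine in wild type (experiments 1 and 2), 117 without and 114 with it in pcf11-13, and 80.3 without and 60.6 with it in pcf11-dNL. UTP4 was read at 145 CPM untreated and 86.1 CPM treated in wild type of experiment 1, 232 and 38.7 in that of experiment 2, 88.6 and 89.4 for pcf11-13, and 129.7 and 44.8 for pcf11-dNL. UTP15 was read at 61.5 and 99.9 CPM in untreated wild type of experiments 1 and 2, 46.2 and 42.4 CPM in treated wild type, 51.8 untreated and 58.2 treated in pcf11-13, and 37.3 untreated and 43.7 treated in pcf11-dNL. In each, untreated pcf11-dNL lay below untreated wild type of experiment 2, while the treated libraries of that experiment were close.

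The response to caffeine was next compared between strains. Within pcf11-13 the change with caffeine ran from -0.58 (NOP1) to 1.00 (UTP5) on the log2 scale, with a median of -0.04, and 17 members were below 0. In 26 of the 32 it lay above the change in both wild-type pairs. Within pcf11-dNL the median was -0.78, 29 members were below 0, and 28 lay between the 2 wild-type pairs.

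Tested as the difference of the caffeine effect, pcf11-13 minus wild type, 31 of the 32 members were above 0, with a median of 1.19 on the log2 scale (0.765 without untreated wild type of experiment 2). Set against the wild-type pair of its own experiment alone, the pcf11-13 pair had a median difference of 0.60, above 0 in 26 members, and against the pair of experiment 2 a median of 1.88, above 0 in all 32. None passed after adjustment, nor did any gene (0.0%), while 15 members (46.9%) had an unadjusted p under 0.05, against 14.1% of all genes (edgeR). DESeq2 called 1 member. The share of all genes that DESeq2 called is not given, so this is not a result about the members. The median log2 difference over all genes was -0.05 by edgeR. KRR1 had the largest difference, 2.15 ± 0.53 (SE, adjusted p = 0.249), followed by UTP13 (1.97 ± 0.56) and UTP10 (1.72 ± 0.59). UTP13, a WD-repeat subunit of UtpB, was read at 175 CPM and 270.4 CPM without and 88.9 CPM and 51.6 CPM with caffeine in wild type (experiments 1 and 2), 96.8 without and 119 with it in pcf11-13, and 173 without and 52.4 with it in pcf11-dNL. UTP10 was read at 369 CPM untreated and 168 CPM treated in wild type of experiment 1, 498 and 89.7 in that of experiment 2, 199.6 and 195 for pcf11-13, and 437 and 108 for pcf11-dNL. In both genes the untreated pcf11-13 library was already below every other untreated library, and its treated partner was at a similar level. The pcf11-13 values rest on 1 library per medium.

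With single libraries left out, the members' median for the difference of the caffeine effect in pcf11-13 ran from 0.765 to 1.553. The mating type, the missing tags and the near-equal depth of the pcf11-13 pair all differ from wild type along with the allele and cannot be told apart from it.

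For pcf11-dNL minus wild type no member passed, none had an unadjusted p under 0.05 (2.19% of all genes did) and no gene passed (0.0%; edgeR, and DESeq2 called no member). The median difference was 0.13, and its sign depended on the wild-type library left out: it was -0.253 without untreated wild type of experiment 2, -0.05 without the treated one, 0.397 without untreated wild type of experiment 1 and 0.406 without its treated one. Against the wild-type pair of its own experiment the median was 0.66, above 0 in all 32 members, and against the pair of experiment 1 it was -0.50, above 0 in 4. UTP15 was highest at 1.11 ± 0.50 (SE, adjusted p = 1), then UTP23 (0.78 ± 0.62) and SOF1 (0.68 ± 0.63). SOF1, which encodes a WD-repeat protein, was read at 52.6 and 114 CPM in untreated wild type of experiments 1 and 2, 45.4 and 32.7 CPM in treated wild type, 57.4 untreated and 70.7 treated in pcf11-13, and 61.6 untreated and 45.4 treated in pcf11-dNL. Its value dropped steeply with caffeine in wild type of experiment 2 and moved less in the other 3 pairs.

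The authors' tables also describe where the reads of a gene end. The truncated fraction is the deposited share of a gene's reads that end before the 3′ UTR, and a second fraction, here called proximal, is never larger than it, with bounds not given in the sources used here. These measures were tested with limma in the 31 members with at least 20 counts in every library. IMP4 was left out.

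With caffeine the read ends differed most in PWP2, UTP9 and UTP20. In PWP2 the truncated fraction was 0.364 and 0.225 without and 0.694 and 0.72 with caffeine in wild type (experiments 1 and 2), 0.577 without and 0.591 with it in pcf11-13, and 0.268 without and 0.702 with it in pcf11-dNL. Most of its reads ended early in treated wild type and treated pcf11-dNL, well above their untreated partners. Most also ended early in both pcf11-13 libraries, untreated and treated, whose fractions were in between. In UTP9 the fraction was 0.373 untreated and 0.607 treated in wild type of experiment 1, 0.199 and 0.682 in that of experiment 2, 0.535 and 0.497 for pcf11-13, and 0.297 and 0.591 for pcf11-dNL. UTP20 had 0.459 and 0.348 in untreated wild type of experiments 1 and 2, 0.634 and 0.599 in treated wild type, 0.613 untreated and 0.485 treated in pcf11-13, and 0.354 untreated and 0.671 treated in pcf11-dNL. In all 3 genes treated wild type and treated pcf11-dNL lay above their untreated partners, and untreated pcf11-13 lay above the other untreated libraries.

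The differences in wild type were 0.413 ± 0.0594 (SE, adjusted p = 0.134) for PWP2, 0.358 ± 0.0799 (SE, adjusted p = 0.194) for UTP9 and 0.213 ± 0.0494 (SE, adjusted p = 0.2) for UTP20 by limma. No member and no gene (0.0% of 5190) passed in wild type, with 8 members (25.8%) at an unadjusted p under 0.05, against 19.7% of all genes. The median over the members was 0.0138 (0.0261 without untreated and 0.00918 without treated wild type of experiment 1), against -0.0113 over all genes.

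Of the truncated reads 84.6% to 97.4% per library were also proximal in PWP2, and 69.6% to 94.8% in UTP9. The proximal fraction of PWP2 was 0.339 and 0.21 without and 0.672 and 0.696 with caffeine in wild type (experiments 1 and 2), 0.546 without and 0.571 with it in pcf11-13, and 0.227 without and 0.684 with it in pcf11-dNL. That of UTP9 was 0.29 untreated and 0.539 treated in wild type of experiment 1, 0.139 and 0.646 in that of experiment 2, 0.373 and 0.351 for pcf11-13, and 0.238 and 0.535 for pcf11-dNL. DIP2 had 0.107 and 0.0432 in untreated wild type of experiments 1 and 2, 0.224 and 0.424 in treated wild type, 0.033 untreated and 0.0282 treated in pcf11-13, and 0.0411 untreated and 0.363 treated in pcf11-dNL. In all 3 genes the fraction was higher in the treated library of both wild-type pairs and of pcf11-dNL and about level within pcf11-13. In UTP20 the proximal fraction was at most 0.006 in any library, so its early ends lie outside that region. No member passed for the proximal fraction with caffeine in wild type, where 0.0578% of genes did, and 7 members (22.6%) had an unadjusted p under 0.05, against 16.3% of all genes (limma).

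Truncated reads are part of a gene's count, so the level of reads that end in the 3′ UTR was rebuilt as the count times 1 minus the truncated fraction, an alternative added after seeing the data. On these reads 21 members fell in wild type and 0 rose, the falls including all 18 above, with a median log2 change of -1.16. Of the 5706 genes tested on these reads 15.6% fell and 17.4% rose. PWP2 had 143 and 271 CPM in untreated wild type of experiments 1 and 2, 53.6 and 41.6 CPM in treated wild type, 75.8 untreated and 114 treated in pcf11-13, and 194 untreated and 47.0 treated in pcf11-dNL. Its change on this scale was -2.19 ± 0.33 (SE, adjusted p = 0.00337) by edgeR, against -0.83 on all reads. Reads of PWP2 that ended early went the other way in level: 81.9 CPM untreated and 122 CPM treated in wild type of experiment 1, 78.7 and 107 in that of experiment 2, 103 and 164 for pcf11-13, and 70.7 and 111 for pcf11-dNL. They were higher with caffeine in every pair.

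UTP9 behaved like PWP2. Its reads that ended in the 3′ UTR were at 191 CPM and 418 CPM without and 125 CPM and 77.2 CPM with caffeine in wild type (experiments 1 and 2), 114 without and 148 with it in pcf11-13, and 227 without and 102 with it in pcf11-dNL, a change of -1.65 ± 0.40 (SE, adjusted p = 0.0163) by edgeR. Its truncated reads were at 114 CPM untreated and 193 CPM treated in wild type of experiment 1, 104 and 166 in that of experiment 2, 132 and 146 for pcf11-13, and 95.9 and 148 for pcf11-dNL. UTP18 was the other member that passed on these reads alone, at -0.90 ± 0.29 (SE, adjusted p = 0.0437). UTP7 (0.06 ± 0.27 (SE, adjusted p = 0.882)) and UTP5 (0.26 ± 0.26 (SE, adjusted p = 0.449)) did not fall on this scale either.

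Over the 3 strains 3 members passed for the truncated fraction. UTP8 rose by 0.133 ± 0.0215 (SE, adjusted p = 0.0316) and ENP2 by 0.0682 ± 0.0132 (SE, adjusted p = 0.0431), while UTP7 was lower, at -0.13 ± 0.0201 (SE, adjusted p = 0.0292) by limma. Of all genes 9.0% were lower and 1.43% higher. The fraction in UTP8 was 0.0939 and 0.0538 without and 0.182 and 0.225 with caffeine in wild type (experiments 1 and 2), 0.163 without and 0.247 with it in pcf11-13, and 0.111 without and 0.298 with it in pcf11-dNL. In UTP7 it was 0.213 untreated and 0.0477 treated in wild type of experiment 1, 0.142 and 0.0571 in that of experiment 2, 0.158 and 0.0595 for pcf11-13, and 0.225 and 0.0548 for pcf11-dNL. In ENP2 it was 0.0342 and 0.0104 in untreated wild type of experiments 1 and 2, 0.0908 and 0.109 in treated wild type, 0.0394 untreated and 0.0674 treated in pcf11-13, and 0.0257 untreated and 0.115 treated in pcf11-dNL. Treated and untreated libraries did not overlap in any of the 3 genes. The genes were picked by a test on these same values, so this is no further support. The share of all genes without overlap in this fraction is not given. With the replicate block ENP2 did not pass (adjusted p = 0.067, limma) and UTP22 passed as lower, at an adjusted p of 0.0456. These calls were fragile. Among the fits with a single library left out, members passed as higher only without either pcf11-13 library. UTP7 kept its call only without untreated wild type of experiment 2.

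**Figure D5:**
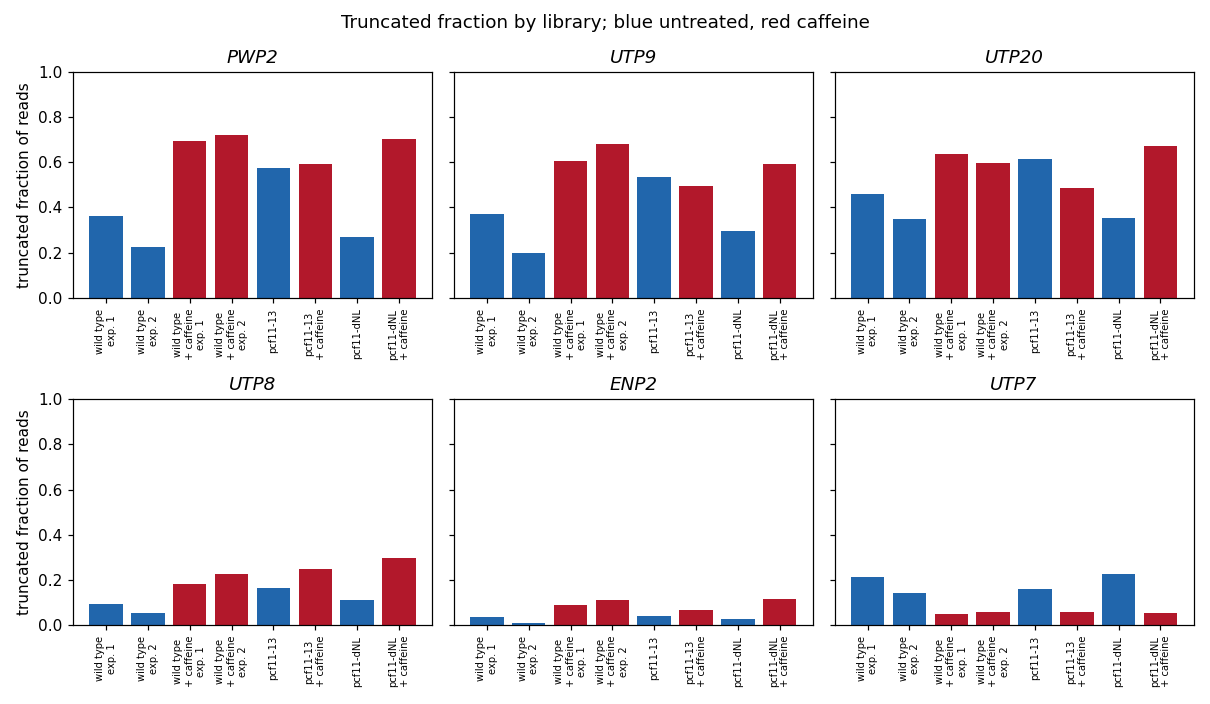
Truncated fraction of reads (0 to 1) for 6 small-subunit processome genes, 1 bar per library and no error bars. PWP2, UTP9 and UTP20 are higher in treated than in untreated wild type and pcf11-dNL, while in pcf11-13 PWP2 is near-level (0.577 untreated and 0.591 treated) and UTP20 is lower when treated (0.613 and 0.485), whereas UTP7 is lower in all 4 treated libraries.

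No member passed for the truncated fraction in pcf11-13 against wild type (0.212% of genes passed) or in pcf11-dNL against wild type (0.0%). In pcf11-13 the differences farthest from 0 were in UTP6 (0.147 ± 0.0474 (SE, adjusted p = 0.27)), UTP21 (0.135 ± 0.0334 (SE, adjusted p = 0.186)) and UTP5 (-0.134 ± 0.0721 (SE, adjusted p = 0.505)) by limma. UTP21 had 0.123 and 0.13 without and 0.252 and 0.169 with caffeine in wild type (experiments 1 and 2), 0.294 without and 0.312 with it in pcf11-13, and 0.179 without and 0.163 with it in pcf11-dNL. Its pcf11-13 libraries were the highest of the 8. UTP6 had 0.273 untreated and 0.338 treated in wild type of experiment 1, 0.239 and 0.202 in that of experiment 2, 0.442 and 0.378 for pcf11-13, and 0.247 and 0.32 for pcf11-dNL, again with pcf11-13 highest. UTP5 had 0.352 and 0.421 in untreated wild type of experiments 1 and 2, 0.43 and 0.328 in treated wild type, 0.347 untreated and 0.151 treated in pcf11-13, and 0.389 untreated and 0.516 treated in pcf11-dNL, with treated pcf11-13 lowest.

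In pcf11-dNL the differences farthest from 0 were UTP5 (0.0695 ± 0.0721 (SE, adjusted p = 1)), UTP8 (0.0655 ± 0.0263 (SE, adjusted p = 1)) and UTP22 (0.0424 ± 0.0735 (SE, adjusted p = 1)) by limma. UTP22 had 0.519 and 0.309 without and 0.347 and 0.221 with caffeine in wild type (experiments 1 and 2), 0.599 without and 0.343 with it in pcf11-13, and 0.487 without and 0.295 with it in pcf11-dNL. Its untreated libraries of experiment 1 stood high, so that the spread between wild-type libraries exceeded the difference.

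For the proximal fraction over the 3 strains no member passed (0.0385% of genes did). No member passed in pcf11-13 against wild type (0.173%), where DIP2 (-0.169 ± 0.0931 (SE, adjusted p = 0.72)), UTP5 (-0.097 ± 0.0807 (SE, adjusted p = 0.849)) and PWP2 (0.0794 ± 0.107 (SE, adjusted p = 0.898)) were farthest from 0 by limma. None passed in pcf11-dNL against wild type (0.0%), where UTP5 (0.0923 ± 0.0807 (SE, adjusted p = 0.95)) was farthest. UTP5 had 0.22 untreated and 0.36 treated in wild type of experiment 1, 0.345 and 0.268 in that of experiment 2, 0.272 and 0.13 for pcf11-13, and 0.295 and 0.486 for pcf11-dNL. Its values in wild type overlapped those in the mutants.

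The response of the read ends was compared between strains in a test added after seeing the data. For the truncated fraction no member and no gene passed in pcf11-13 minus wild type (0.0%) or in pcf11-dNL minus wild type (0.0%), with 5 and 1 members at an unadjusted p under 0.05 (limma), against 7.98% and 5.49% of all genes. For the proximal fraction no member passed in pcf11-13 minus wild type (0.0193% of genes, 1 in number), whereas on a logit scale 1 member and 93 genes did. In pcf11-dNL minus wild type 2 passed, UTP11 and UTP15, among 2.37% of all genes, and both are genes at or near 0 in every wild-type library, with 2.0 and 3.0 proximal reads in treated pcf11-dNL.

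Average 3′ UTR length, in nucleotides, moved little. Over the members its median was 113 and 114 nt in untreated and 114 and 117 nt in treated wild type, against 143 and 141 and then 133 and 132 nt over all genes tested. No member passed with caffeine in wild type (0.386% of 5188 genes passed), and 3 (9.68%) had an unadjusted p under 0.05, against 23.7% of all genes (limma). The median difference was -0.754 nt over the members (-1.96 without treated wild type of experiment 1) and -4.42 nt over all genes. None passed over the 3 strains (1.39%) either.

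RRP9 had the largest difference in wild type, 99.2 ± 20.1 (SE, adjusted p = 0.136) nt, with lengths of 252 and 252 nt in untreated wild type of experiments 1 and 2, 327 and 376 nt in treated wild type, 342 untreated and 349 treated in pcf11-13, and 297 untreated and 397 treated in pcf11-dNL. Its 2 untreated wild-type libraries agreed to within 1 nt, and every other library was longer. UTP5 was at -84.6 ± 41.1 (SE, adjusted p = 0.33) nt, with 321 nt and 221 nt without and 194 nt and 179 nt with caffeine in wild type (experiments 1 and 2), 283 without and 292 with it in pcf11-13, and 244 without and 159.6 with it in pcf11-dNL. The untreated wild-type libraries of UTP5 differed by about as much as the treatment. ROK1 was at -50.1 ± 17.6 (SE, adjusted p = 0.235) nt, with 200.1 nt untreated and 129.7 nt treated in wild type of experiment 1, 157 and 127 in that of experiment 2, 161 and 146 for pcf11-13, and 203 and 138 for pcf11-dNL. It was shorter in the treated library of each of the 4 pairs, and did not pass.

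In pcf11-13 against wild type 25 of the 31 members were longer, with a median of 4.29 nt (1.57 without treated pcf11-13), and none passed (0.675% of genes did). Over all genes the median was 2.61 nt, so the direction is shared with the rest. In pcf11-dNL 28 of 31 were longer, with a median of 2.55 nt against 2.04 nt over all genes, and none passed (0.0%). The members' median was 0.822 nt without untreated and 4.87 nt without treated pcf11-dNL. UTP8 differed by 53.7 ± 10.6 (SE, adjusted p = 0.0852) nt in pcf11-13 by limma and had 106 and 96.3 nt in untreated wild type of experiments 1 and 2, 85.8 and 92.3 nt in treated wild type, 135 untreated and 163 treated in pcf11-13, and 119.6 untreated and 103 treated in pcf11-dNL. Both of its pcf11-13 libraries were longer than any other library.

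In pcf11-dNL SOF1 (49.3 ± 20.8 (SE, adjusted p = 1)), RRP9 (45.0 ± 25.5 (SE, adjusted p = 1)) and UTP6 (29.3 ± 7.42 (SE, adjusted p = 1)) had the largest differences in length, in nt, by limma. UTP6 had 72.7 nt and 88.2 nt without and 94.9 nt and 108 nt with caffeine in wild type (experiments 1 and 2), 92.0 without and 91.6 with it in pcf11-13, and 113 without and 127 with it in pcf11-dNL. SOF1 had 153 nt untreated and 149 nt treated in wild type of experiment 1, 124 and 179 in that of experiment 2, 184 and 151 for pcf11-13, and 173 and 228 for pcf11-dNL. Treated pcf11-dNL was the longest library in both genes. The caffeine response of length did not pass for any member or gene in pcf11-13 minus wild type (0.0%) or pcf11-dNL minus wild type (0.0%), with 3 and 0 members at an unadjusted p under 0.05 (limma), against 13.2% and 7.04% of all genes.

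The rest of the ribosome assembly pathway moved with the members in wild type. Of 35 other small-subunit factors 21 fell and 2 rose, with a median of -0.95, and of 57 large-subunit assembly factors 39 fell, with a median of -1.18. Of 7 subunits of RNA polymerase I, which makes the ribosomal RNA precursor, 4 fell, with a median of -1.06. Among 137 cytosolic ribosomal protein genes 33 fell, with a median of -0.69. In the wild-type pairs of experiments 1 and 2 the medians were -0.397 and -1.358 for other small-subunit factors. They were -0.58 and -1.738 for large-subunit factors, -0.399 and -1.866 for polymerase I subunits and -0.262 and -1.059 for ribosomal protein genes. Of all genes tested 14.5% fell and 17.1% rose. The processome genes were therefore not set apart from other assembly genes by their counts, and no test of a difference between lists was made.

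The largest falls among other small-subunit factors were those of the helicase gene DHR2 (-2.25 ± 0.39 (SE, adjusted p = 0.00537)), the RNA acetyltransferase gene KRE33 (-1.79 ± 0.33 (SE, adjusted p = 0.00661)) and MRD1 (-1.71 ± 0.42 (SE, adjusted p = 0.0177)) by edgeR. DHR2 was read at 107 and 268 CPM in untreated wild type of experiments 1 and 2, 40.1 and 39.6 CPM in treated wild type, 66.8 untreated and 64.01 treated in pcf11-13, and 190.4 untreated and 34.5 treated in pcf11-dNL. Its pcf11-13 pair was level, as with KRR1. SAS10 (1.45 ± 0.38 (SE, adjusted p = 0.0238)) and NOP19 (1.03 ± 0.29 (SE, adjusted p = 0.0285)) rose, as UTP5 did over the 3 strains. SAS10, a partner of Mpp10, was read at 92.3 CPM and 197 CPM without and 328 CPM and 468 CPM with caffeine in wild type (experiments 1 and 2), 208 without and 439 with it in pcf11-13, and 289 without and 379.6 with it in pcf11-dNL. NOP19 was read at 134 CPM untreated and 369 CPM treated in wild type of experiment 1, 210.3 and 337 in that of experiment 2, 122 and 351 for pcf11-13, and 211 and 404 for pcf11-dNL. Both were higher with caffeine in every pair.

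Among large-subunit factors ALB1 (-2.74 ± 0.36 (SE, adjusted p = 0.00218)), NOG2 (-2.66 ± 0.34 (SE, adjusted p = 0.00216)) and HAS1 (-2.05 ± 0.34 (SE, adjusted p = 0.00457)), a helicase that acts on both subunits, fell most by edgeR. Among polymerase I genes the largest falls were those of RPA190 (-1.69 ± 0.31 (SE, adjusted p = 0.00644)), which encodes the largest subunit, RPA49 (-1.54 ± 0.24 (SE, adjusted p = 0.00382)) and RPA135 (-1.43 ± 0.35 (SE, adjusted p = 0.0179)).

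None of the 9 genes for regulators of the regulon passed the test with caffeine in wild type. Of these 1 had an unadjusted p under 0.05, against 44.3% of all genes (edgeR). The repressor genes TOD6 and DOT6 were at -0.89 ± 0.32 (SE, adjusted p = 0.0674) and -0.53 ± 0.26 (SE, adjusted p = 0.153). STB3, whose protein binds RRPE, was at 0.07 ± 0.22, and the activator gene SFP1 at -0.01 ± 0.21. The kinase genes SCH9, TOR1 and TOR2 were at 0.25 ± 0.21, -0.07 ± 0.27 and -0.22 ± 0.21, and the ribosomal protein gene regulators IFH1 and FHL1 at -0.54 ± 0.32 and -0.49 ± 0.22. RNA level does not show the activity of these proteins. In the mutants against wild type, none of the other small-subunit, large-subunit, polymerase I or regulator genes passed (edgeR). In pcf11-13 1, 5, 1 and 1 of them had an unadjusted p under 0.05, against 21.0% of all genes. In pcf11-dNL 0 did, against 2.79% of all genes. Of the 137 cytosolic ribosomal protein genes none passed either, with 11 in pcf11-13 and 6 in pcf11-dNL at an unadjusted p under 0.05. Their median log2 differences were -0.445 and -0.473, averaged over the media. Against wild type of experiment 1 the median in pcf11-13 was -0.793 without and -0.232 with caffeine. Against wild type of experiment 2 the median in pcf11-dNL was -0.893 without and 0.108 with it.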

How the data were processed

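DRS was run on 8 libraries of total RNA. Per the submitters' processing notes the genome build was sacCer3. Each of the 4 tables that the authors deposited covers 5933 genes. Per the file headers they hold expected counts per gene without normalization, average 3′ UTR length in nucleotides (a score), and 2 fractions, the share of truncated reads and the proximal share. Of the expected counts 9.72% were whole within 1e-06, and they were rounded. Not given in the sources used here are the aligner, the counting rules, the use of strand and what was done with reads that map repeatedly.

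The count test was the quasi-likelihood test of edgeR 4.0.16 under R 4.3.3, after TMM scaling and filterByExpr, with Benjamini-Hochberg adjustment over 5849 genes and a threshold of 0.05. Caffeine in wild type and the differences of the caffeine effect came from a fit of 6 group means, whose spread comes from the wild-type pairs. Caffeine over 3 strains and the mutant effects used additive terms for genotype and medium, where single mutant libraries are assumed to vary like the others. Levels are TMM-scaled CPM, with a prior count of 2 in log2 values of single libraries. CPM is not scaled by gene length, so levels are compared within a gene. Lengths and fractions were tested with limma 3.58.1 on the deposited values, in genes read 20 times or more in each library. That left 5188 genes for length and 5190 for the fractions.

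Alternatives were DESeq2 1.42.0, other scalings and filters, a replicate block, single libraries left out, and reads that end in the 3′ UTR. The tests were checked on simulated data. Gene names came from RefSeq (R64), where 5919 identifiers matched and 14 did not. The members, the lists and the rule for genes shown in full (largest and smallest changes in each comparison) were chosen with earlier results of these data known. The design had foreseen tests on counts behind the fractions. The files give none per library, so limma was kept.

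The labels give wild-type libraries of different media the same experiment number. Their deviations from the group means correlated across genes at 0.194, and the labels name a shared experiment, so the numbers were taken to pair the samples. The wild-type repeats differed by more than counting noise (chi-square per degree of freedom 37.29 and 126.95) and were counted as 2 samples. The labels do not say whether they came from separate cultures, so the p-values reflect the scatter among these samples, which could be technical.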

Additional observations from a re-analysis of the deposited data

Results flagged for a closer look

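The caffeine response of the proximal fraction differed between pcf11-dNL and wild type in 2 of the 31 members tested, UTP11 and UTP15, by a limma test of the difference itself that was added after seeing the data. In UTP11 the fraction was 0.0187 in treated pcf11-dNL and at or near 0 in the other 7 libraries, a difference of 0.0187 ± 0.000485 (SE, adjusted p = 0.0241). In UTP15 it was 0.0144 in treated pcf11-dNL and 0.0076 in treated pcf11-13, a difference of 0.0144 ± 0.000485 (SE, adjusted p = 0.0324). Each call rests on 1 mutant library. The small standard error comes from wild-type libraries that all lie at or near 0. Of the 123 genes called in this comparison, 65 were under 0.001 in every wild-type library. The fractions correspond to 2.0 of 106.9 counts in UTP11 and 3.0 of 208.1 counts in UTP15. A test on a logit scale has the same near-constant wild-type values and is no further support; it called 3 members and 142 genes.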

How the results depend on the processing

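The labels' experiment numbers pair the wild-type samples. With the replicate block, 17 members fell with caffeine in wild type (18 without it) and 14 over the 3 strains (15 without it), the calls lost being MPP10 (adjusted p = 0.0613, edgeR) and NOP14 (0.0644). For the truncated fraction over the 3 strains the block gave 2 lower and 1 higher in place of 1 and 2. The block moved the members' median for the truncated fraction in pcf11-dNL from 0.00654 to 0.0115, and for the proximal fraction in pcf11-13 from -0.000517 to -9.7e-08. It changed no other count of calls among the members. The share of all genes called with the block is not given. A minimum of 50 counts moved the first of these medians to 0.0026.

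Across the alternatives 9 of the 18 members called lower in wild type kept their call in every setting, and 4 of the 16 called over the 3 strains. The additive fit of all 3 strains was also set in place of the wild-type fit. It repeats the 3-strain result above, with 1 member higher (UTP5), and is no separate wild-type estimate. Reads that end in the 3′ UTR called 0 higher over the 3 strains. DESeq2 called 1 member for the difference of the caffeine effect in pcf11-13, and the share of all genes it called is not given.

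With single libraries left out, members lower with caffeine in wild type numbered 9 to 27 and over the 3 strains 4 to 24, with 0 to 1 higher. Members with a larger value in pcf11-13 for the difference of the caffeine effect numbered 0 to 6. The members' median in pcf11-13 against wild type ran from -0.653 to 0.515. Its sign turned with the medium of the library left out. For the truncated fraction over the 3 strains 0 to 2 were lower and 0 to 5 higher, and medians ran from -0.00801 to 0.0407 in pcf11-13 and from -0.0049 to 0.0254 in pcf11-dNL. For 3′ UTR length the median with caffeine ran from -1.96 to -0.693 nt in wild type and from -2.44 to 0.178 nt over the 3 strains. In pcf11-13 against wild type it ran from 1.57 to 5.73 nt. For the proximal fraction the medians ran from -0.00269 to 0.000935 in pcf11-13 and from 4.98e-08 to 0.00194 in pcf11-dNL.

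Directions turned under some alternatives for the following members. With caffeine in wild type, leaving out single libraries gave log2 changes from -0.603 to 0.034 for IMP3, -1.211 to 0.205 for IMP4 and -0.228 to 0.106 for UTP7. The additive fit of all 3 strains, which is not a wild-type estimate, gave IMP3 0.077, and 3′ UTR reads gave UTP7 0.06. Over the 3 strains those reads gave IMP3 -0.069 and UTP7 0.025, and omissions gave IMP3 -0.131 to 0.303. Omissions gave -0.008 to 1.112 for SOF1 in the difference of the caffeine effect in pcf11-dNL, and -2.31 to 89.6 nt for the length of RRP9 in pcf11-13. They gave -0.00893 to 0.0771 (UTP22) and -0.0289 to 0.168 (UTP5) for the truncated fraction in pcf11-dNL. For the proximal fraction they gave -0.121 to 0.279 (PWP2) and -0.21 to 0.0162 (UTP5) in pcf11-13, and -0.112 to 0.0641 (PWP2) and -0.0164 to 0.201 (UTP5) in pcf11-dNL, where the block gave PWP2 0.00244. The cause was not tested. IMP4 had the fewest counts, 17 in 1 library, and the part of depth in its spread was not tested.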
